A study of Mus musculus with 4 samples.

Results

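The complement components described here are 9 genes, C1qa, C1qb, C1qc, C1s1, C1ra, C3, C4b, Cfb and Serping1, chosen by symbol from the 31054 features of the expression tables. All 9 were found under 1 identifier each. Their counts were followed in macrophages, tumour cells and stromal cells of mouse mammary tumours with and without immune checkpoint therapy. Cells were assigned to a class by UMIs (unique molecular identifiers, each standing for 1 captured transcript) of fixed marker genes, none of which was a complement component.

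The study compared 2 transplanted models of triple-negative breast cancer in female mice, T11-Apobec in hosts of strain Balbc and KPB25Luv in hosts of strain FVB/NJ. In all 4 groups the tumour cells had been placed in the number 4 mammary gland, and mice were randomised at a tumour diameter of 5 mm. T11-Apobec treated and KPB25Luv treated mice received antibodies against PD1 (10 mg/kg) and CTLA4 (100 µg) biweekly and were sampled after 7 days. T11-Apobec untreated and KPB25Luv untreated mice received none, and their labels give no sampling time. Each group was 1 library of 1 tumour model, so model and host strain cannot be told apart, the spread between mice is unknown, and intervals cover counting error only. The labels say no more of how the lines were made and do not say whether a library held 1 tumour or several.

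The complement system is a cascade of plasma proteins that marks cells and particles for removal. In the classical pathway C1q, built from 3 chains, binds antibody or altered surfaces and activates its proteases C1r and C1s, which cleave C4 and C2 so that C3 is cleaved in turn. The alternative pathway, which needs factor B, amplifies that step, and the C1 inhibitor holds C1r and C1s in check. Liver cells make most plasma complement, while in tissues macrophages are the known source of C1q, and C3, factor B, C1r and C1s can be induced by interferon-gamma and other cytokines in many cell types.

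The genes lie on 4 chromosomes of GRCm38, the assembly that mm10 names. C1qa (chr4:136895917-136898803), C1qc (chr4:136889804-136893065) and C1qb (chr4:136880129-136886187) stand side by side on the minus strand. C1ra (chr6:124512405-124523443, plus strand) and C1s1 (chr6:124530345-124542359, minus strand) are neighbours that run towards each other. C4b (chr17:34728380-34743882), Cfb (chr17:34856374-34862518) and C3 (chr17:57203970-57228136) are on the minus strand of chromosome 17, and Serping1 (chr2:84765387-84775444) on that of chromosome 2. Several are uncertain for the reads they share. C1rb and C1s2 are close relatives of C1ra and C1s1 on the same chromosome, C4a (chr17:34809092-34823464), a close relative of C4b, was absent from the feature table, and Gm20547 (chr17:34856412-34882042) covers most of Cfb on the same strand and had 0 UMIs in macrophage- and tumour-gated cells of every library. Reads that fit 2 of these genes could have been lost or counted for either.

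The promoters of C1s1, C1ra and C3 are shown because these genes, like C4b, for which no window was found, were higher in the treated library in tumour cells of both models and in T11-Apobec macrophages. For C1s1, with more than 1 window, the one at the annotated gene start is given. Each is RefSeq sequence of GRCm38.p6, from 250 bases before to 50 after the start, in the direction of the gene. Capitals mark matches to TTCNNNGAA, a core found in cytokine-responsive promoters, to the interferon-stimulated response element, read as GAAA, any 2 bases and GAAA again, or to TTGCGNAA, a C/EBP-type core, all searched on both strands.
C1s1 (chr6:124542310-124542609, minus strand): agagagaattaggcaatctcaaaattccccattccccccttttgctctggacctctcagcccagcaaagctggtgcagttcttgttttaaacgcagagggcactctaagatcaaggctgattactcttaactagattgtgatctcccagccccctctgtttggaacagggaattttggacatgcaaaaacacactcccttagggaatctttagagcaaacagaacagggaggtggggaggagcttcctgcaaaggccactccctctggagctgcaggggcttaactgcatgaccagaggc
C1ra (chr6:124512371-124512670, plus strand): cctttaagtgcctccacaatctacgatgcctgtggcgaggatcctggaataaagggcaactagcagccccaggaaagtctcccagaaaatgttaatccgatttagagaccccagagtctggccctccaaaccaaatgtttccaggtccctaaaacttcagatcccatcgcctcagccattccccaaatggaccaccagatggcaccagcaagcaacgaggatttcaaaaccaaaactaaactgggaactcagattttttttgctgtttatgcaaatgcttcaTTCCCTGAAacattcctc
C3 (chr17:57228087-57228386, minus strand): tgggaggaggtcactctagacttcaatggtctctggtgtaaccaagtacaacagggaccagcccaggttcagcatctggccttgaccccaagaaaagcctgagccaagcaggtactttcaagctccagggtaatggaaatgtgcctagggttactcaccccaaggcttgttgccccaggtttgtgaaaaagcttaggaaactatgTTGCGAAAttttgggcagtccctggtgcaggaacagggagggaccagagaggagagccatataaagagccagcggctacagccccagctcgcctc
The C1ra window held TTCCCTGAA, which begins 33 bases after the RefSeq start, and the C3 window held TTGCGAAA, which begins 45 bases before that gene's start, while neither C1s1 window held any of the 3 motifs. Among all 32851 windows of 300 bases, 8.30% held TTCNNNGAA, 3.44% held the response element and 0.798% held TTGCGNAA. The RefSeq start of C1ra lies 216 bases inside the gene interval given above, so that most of its window and the match are within that interval. Windows were found for 5 of the 9 genes, C1qb and C1qc being the others, and a match is only a description of the letters.

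The libraries held between 5509 and 11304 barcodes with 30369476 to 98475778 UMIs, and 5273 to 10321 cells per library were kept. Pairs of libraries shared 34 to 125 cell barcodes. The gate called macrophage here used markers of macrophages and monocytes, Ly6c2 and Ccr2 among them, and does not separate these cell types. Macrophage-gated cells numbered 631 in T11-Apobec treated and 2286 in T11-Apobec untreated, and 98 in KPB25Luv treated and 490 in KPB25Luv untreated. Tumour-gated cells numbered 699 against 5430 in T11-Apobec, and 57 against 2935 in KPB25Luv, treated against untreated. T cells made up 49.7% of T11-Apobec treated against 3.55% of T11-Apobec untreated cells, and 76.1% of KPB25Luv treated against 18.1% of KPB25Luv untreated cells. All 12 macrophage markers had UMIs in the macrophage gate of every library, and C1qa, C1qb and C1qc, which took no part in the gate, were among its 10 leading genes. Cells that met the gates of different classes, 2.70 to 6.46% per library, were left out. T cells, which should lack these transcripts, served as the measure of free RNA.

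C1q, the recognition molecule, was by far a macrophage product. C1qa stood at 7244 CPM (UMIs of a gene scaled to all UMIs of the class) in T11-Apobec treated macrophages, against 7500 CPM in T11-Apobec untreated ones, and at 1236 CPM in KPB25Luv treated against 4739 CPM in KPB25Luv untreated macrophages. C1qb stood at 5026 against 5355 CPM in T11-Apobec treated and untreated macrophages, and at 811 against 2996 CPM in KPB25Luv treated and untreated ones. C1qc followed with 4754 against 4869 CPM in T11-Apobec and 612 against 2830 CPM in KPB25Luv, treated against untreated. All 3 chains were therefore close to equal between the T11-Apobec libraries and 3.70- to 4.62-fold lower in the treated KPB25Luv library.

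In tumour cells the CPM of the C1q chains was at or below that of T cells, the measure of free RNA. C1qa in T cells was 38.2 CPM in T11-Apobec treated, 81.5 CPM in T11-Apobec untreated, 0.355 CPM in KPB25Luv treated and 64.6 CPM in KPB25Luv untreated. Tumour cells of the same libraries had 23.8, 28.1, 0 and 52.3 CPM, in each case at or below the T cells. The split of C1q UMIs over the chains was similar but not equal. C1qa took 42.6% (42.25 to 42.86%) of them in T11-Apobec treated macrophages, 40.3% (37.7 to 43.0%) in T cells and 46.6% (43.4 to 49.9%) in tumour cells. In KPB25Luv untreated these shares were 44.9% (44.4 to 45.3%), 47.4% (43.6 to 51.1%) and 46.6% (45.5 to 47.7%). The tumour cell interval did not overlap that of macrophages in either library. In T11-Apobec untreated the shares were 42.3%, 47.4% (135 C1q UMIs) and 41.5%. The split does not show which cells made the RNA, and its source was not tested. Shares of cells with a C1qa UMI, 88.9% of T11-Apobec treated and 97.8% of T11-Apobec untreated macrophages, are read beside 13.0% and 11.5% of T cells. The median macrophage held 9026 and 4036.5 UMIs in those libraries and the median T cell 3686 and 1717.5. Of tumour cells in the same libraries 43.9% and 26.2% had a C1qa UMI, above the T cells, with medians of 25752 and 12832 UMIs. Thinned to 1000 UMIs per cell, the C1qa shares were 2.86% and 2.60% of tumour cells and 3.75% and 5.37% of T cells. In KPB25Luv untreated 66.6% of tumour cells and 21.1% of T cells had one, or 4.71% and 5.99% thinned. Whether free RNA scales with the UMIs of a cell was not tested, so the T cell CPM may not measure it in deeper cells.

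**Figure D1:**
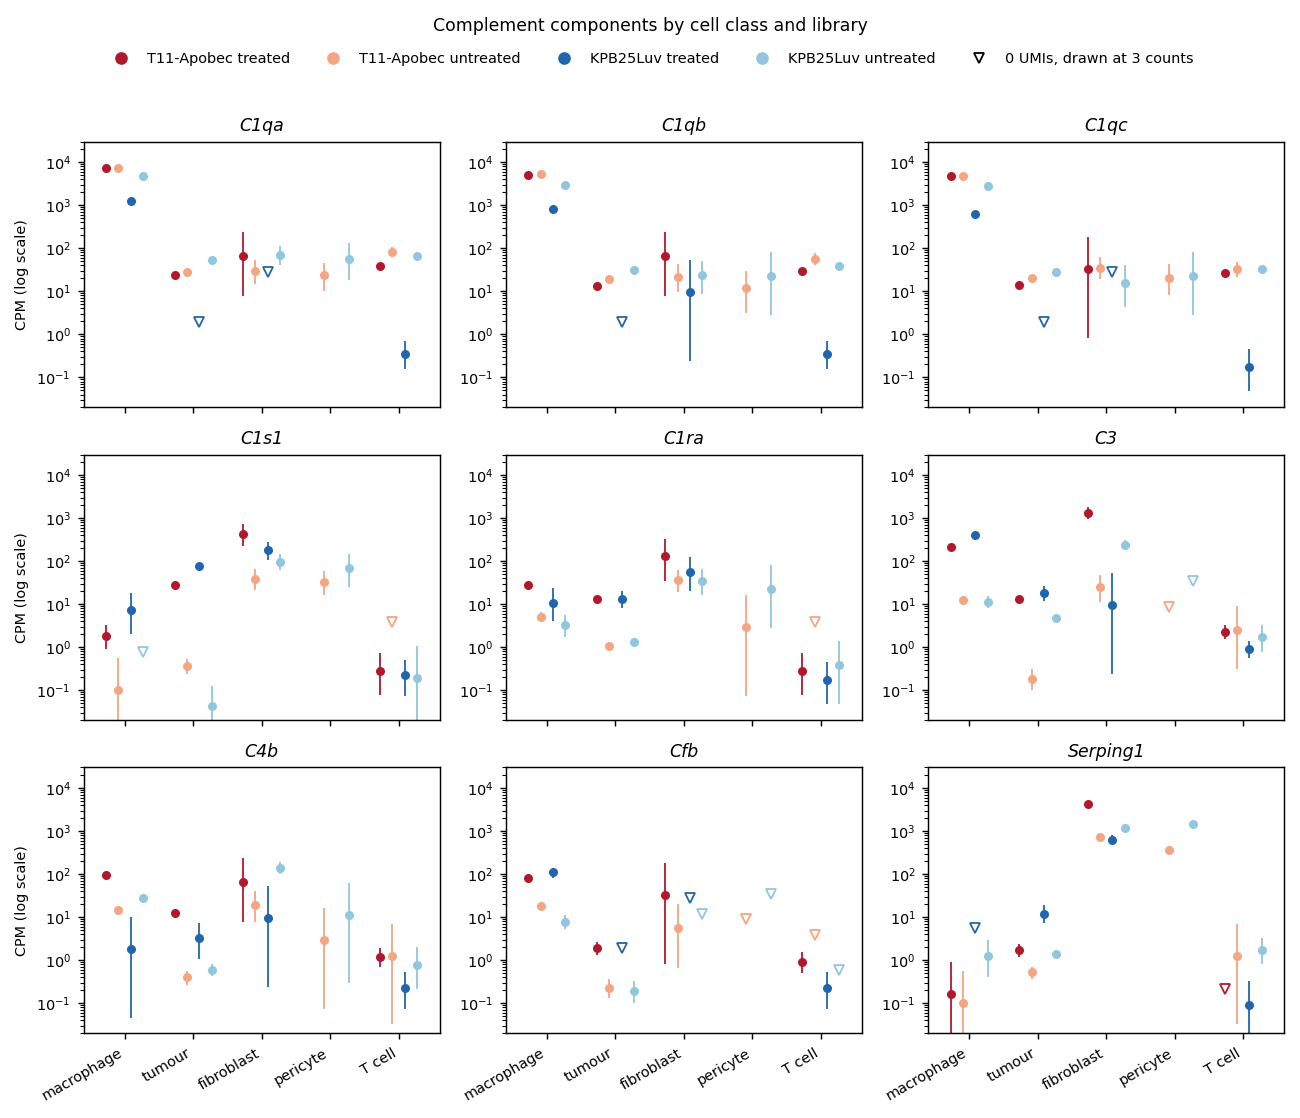
CPM of each gene on a log scale (y) in 5 cell classes (x) of the 4 libraries, with exact Poisson 95% intervals. C1q chains lie at 612 CPM or more in macrophages, C1s1 lies at 28.6 and 76.1 CPM in treated tumour cells and at 0.359 CPM or less in untreated ones, and Serping1 lies at 365 CPM or more wherever fibroblasts and pericytes were found and at 12.2 CPM or less in macrophages, tumour cells and T cells.

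Of the proteases C1r and C1s, C1s, encoded by C1s1, was found mainly in cells other than macrophages. C1ra, which encodes C1r, was found in both macrophages and tumour cells. Within the untreated libraries C1s1 was highest in fibroblasts and pericytes, at 38.4 and 32.4 CPM in T11-Apobec and 97.7 and 68.4 CPM in KPB25Luv, levels whose intervals overlapped within each library. It was at 28.6 CPM in T11-Apobec treated tumour cells, against 0.359 CPM in T11-Apobec untreated ones. In KPB25Luv treated tumour cells it was at 76.1 CPM, against 0.0443 CPM, or 3 UMIs, in KPB25Luv untreated ones. T cells had 0.193 to 0.285 CPM in the 3 libraries where any of their cells had a C1s1 UMI. C1ra was at 13.0 against 1.08 CPM in T11-Apobec treated and untreated tumour cells and at 13.4 against 1.33 CPM in KPB25Luv treated and untreated tumour cells. Macrophages carried C1ra at 27.8 CPM in T11-Apobec treated and 5.14 CPM in T11-Apobec untreated, above the tumour cells of the same libraries. C1s1 in macrophages was at 1.82 CPM in T11-Apobec treated and 0.101 CPM (1 UMI) in T11-Apobec untreated. It was at 7.27 CPM (1.98 to 18.6, 4 UMIs) in KPB25Luv treated macrophages and 0 in KPB25Luv untreated ones.

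C3, the hub of the cascade, had different main sources in the KPB25Luv libraries. Macrophages held 63.2% and tumour cells 7.80% of the C3 UMIs of KPB25Luv treated, where they were 1.86% and 1.08% of cells. In KPB25Luv untreated macrophages held 8.38% and tumour cells 58.8%, as 7.57% and 45.3% of cells. Macrophages of T11-Apobec held 65.6% of C3 UMIs with treatment and 62.1% without. C3 was at 218 CPM in T11-Apobec treated and 12.7 CPM in T11-Apobec untreated macrophages, and at 413 CPM in KPB25Luv treated and 11.4 CPM in KPB25Luv untreated macrophages. Cfb, which encodes factor B, followed the same order, with 81.1 against 18.6 CPM in T11-Apobec and 109 against 7.86 CPM in KPB25Luv macrophages, treated against untreated. Most Cfb UMIs of T11-Apobec were macrophage UMIs, 78.4% with treatment and 78.6% without. A C3 UMI was found in 60.4% of T11-Apobec treated and 4.68% of T11-Apobec untreated macrophages, beside 0.854% and 0.546% of T cells. Thinned to 1000 UMIs per cell, the macrophage shares were 18.1% and 1.27%. The thinned T cells had a C3 UMI in 0.167% of treated cells and 0 of 298 untreated ones, which at 3 counts allows up to 1.01%. In KPB25Luv the shares were 68.4% of treated and 6.12% of untreated macrophages, beside 0.423% and 0.682% of T cells. Thinned, they were 32.7% and 1.22% of macrophages, beside 0.0515% and 0.179% of T cells.

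C4b, the C4 gene of the classical pathway, was at 94.4 CPM in T11-Apobec treated macrophages, against 14.5 CPM in T11-Apobec untreated ones. The KPB25Luv libraries stood in the opposite order, with 1.82 CPM, a lone UMI, in treated macrophages and 27.1 CPM, or 107 UMIs, in untreated ones. In fibroblasts of KPB25Luv untreated C4b reached 141 CPM and C3 242 CPM, from 17 cells.

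Serping1, which encodes the C1 inhibitor, was a stromal transcript. Untreated T11-Apobec fibroblasts had 730.1 CPM (645 to 823) and pericytes 365 CPM (303 to 435), and 82.6% of 46 fibroblasts and 78.7% of 61 pericytes had a UMI. Untreated KPB25Luv fibroblasts had 1192 CPM (1062 to 1333, 17 cells) and pericytes 1425 CPM (1186 to 1698, 12 cells). Treated libraries held 3 fibroblasts in T11-Apobec and 4 in KPB25Luv and 0 pericytes in either, so that stromal levels could not be compared between treated and untreated tumours. The few treated fibroblasts still held 132 of the 173 Serping1 UMIs of T11-Apobec treated and 66 of the 103 of KPB25Luv treated. Several of these stromal classes are under the 50 cells used elsewhere as a minimum and are given as a description.

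**Figure D2:**
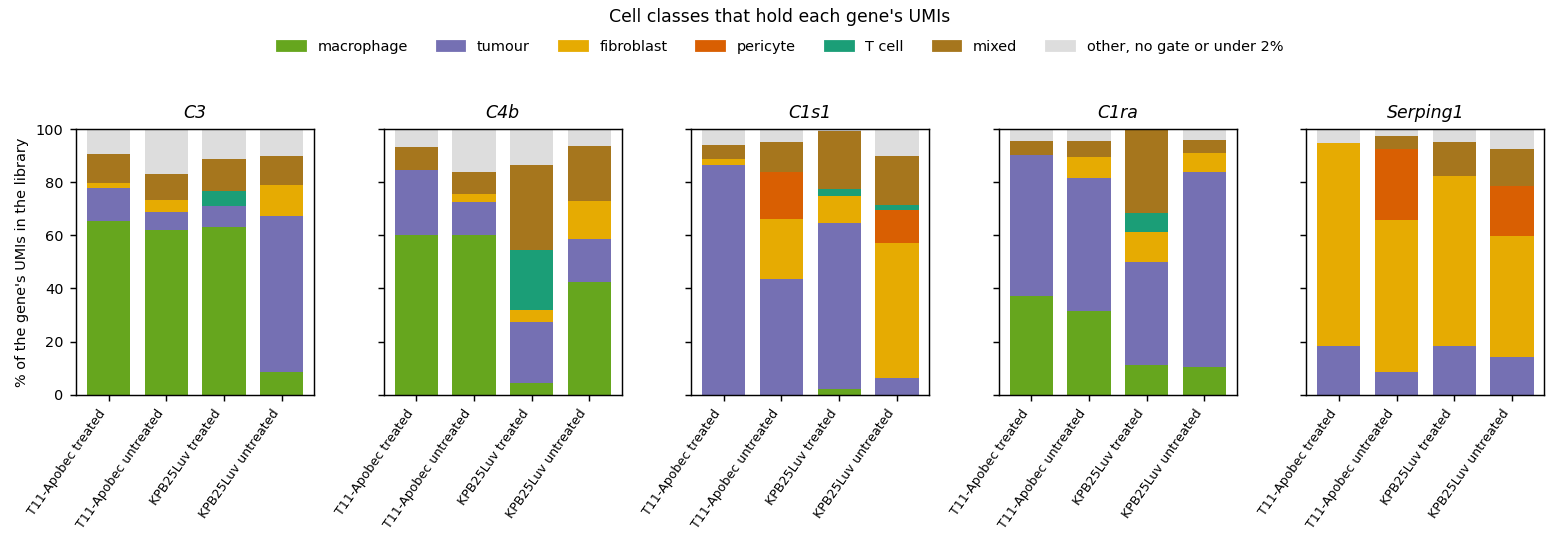
Share of each gene's UMIs in a library (y, %) held by each cell class, for 5 genes and the 4 libraries (x). Macrophages hold 63.2% of C3 UMIs in KPB25Luv treated and 8.38% in KPB25Luv untreated, tumour cells hold 86.5% of C1s1 UMIs in T11-Apobec treated and 43.5% in T11-Apobec untreated, and fibroblasts hold 45.7 to 76.3% of Serping1 UMIs in all 4 libraries.

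Treated and untreated libraries were next compared within each class. A gene was called higher or lower past 1.5-fold if the pair of libraries held at least 10 of its UMIs, and log2 ratios are given with 95% counting intervals. In T11-Apobec macrophages 5 of the 8 genes measured were higher in the treated library and 0 were lower, where 10.1% of all 11748 genes measured were higher and 14.5% lower. The ratios were 4.09 (3.83 to 4.37) for C3, 2.70 (2.43 to 2.97) for C4b, 2.42 (1.98 to 2.92) for C1ra and 2.13 (1.88 to 2.38) for Cfb. C1s1, with 11 UMIs in treated against 1 in untreated macrophages, was at 3.53 (1.39 to 9.60). The C1q chains lay between -0.09 and -0.03, and Serping1 had 1 UMI in each library. The median over the 8 genes was 2.27 and over all genes -0.09. Tumour markers of the mesenchymal list summed to 39.9 CPM in treated and 148 CPM in untreated macrophages, with 8 and 9 of 9 found, and their part in the ratios was not tested.

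In KPB25Luv macrophages, from 98 treated cells, 3 of 7 genes measured were higher and 4 lower, where 15.2% of all genes were higher and 31.2% lower. C3 was 35.5-fold higher (log2 ratio 5.15, 4.71 to 5.67) and Cfb 13.5-fold higher (3.76, 3.15 to 4.47). C1ra, at 10.9 against 3.30 CPM in treated and untreated macrophages, was also higher at 1.66 (0.04 to 3.22) from 6 treated and 13 untreated UMIs, an interval that reached below 1.5-fold. C1qa was lower at -1.94 (-2.05 to -1.83), C1qb at -1.89 (-2.03 to -1.75) and C1qc at -2.21 (-2.37 to -2.05). C4b was lower at -3.74 (-9.22 to -1.39). The other 2 genes were under 10 UMIs, C1s1 with 4 in treated and 0 in untreated macrophages and Serping1 with 0 and 5. The C3 and Cfb ratios were thus higher in the treated library of both models, whereas C1q and C4b were called lower in KPB25Luv and not in T11-Apobec, a difference between the models that was not tested. Epithelial markers summed to 50.9 CPM in treated and 493 CPM in untreated KPB25Luv macrophages, with 5 and 8 of 9 found. Within the gate's own markers Ly6c2 was at 1638 against 123 CPM and Cx3cr1, a fractalkine receptor, at 7.27 against 323 CPM in treated and untreated KPB25Luv macrophages. The part of these markers in the ratios was not tested.

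Tumour cells of T11-Apobec had 6 of 9 genes higher in the treated library and 0 lower, where 10.7% of all genes measured were higher and 11.6% lower. In treated and untreated cells C3 stood at 13.3 against 0.186 CPM, C4b at 12.5 against 0.398 CPM, Cfb at 1.89 against 0.226 CPM and Serping1 at 1.73 against 0.518 CPM. T cells of the treated library had Cfb at 0.925 CPM (0.493 to 1.58), which overlapped its tumour cells (1.32 to 2.63). Thinned to 1000 UMIs, 0.143% of these tumour cells and 0.100% of these T cells had a Cfb UMI. C1s1 was 77.6-fold higher (6.28, 5.76 to 6.93), C3 67.7-fold (6.08, 5.39 to 7.05) and C4b 30.5-fold (4.93, 4.42 to 5.57). C1ra was at 3.58 (3.22 to 3.97), Cfb at 3.01 (2.19 to 3.99) and Serping1 at 1.72 (1.02 to 2.45). Of the treated tumour cells 28.6% had a C1s1 UMI, against 0.497% of the untreated ones, with a median of 25752 and 12832 UMIs per cell. Thinned to 1000 UMIs each, the shares were 3.43% and 0.0737%, beside 0.0669% of treated T cells and 0 of 298 untreated ones, which at 3 counts allows a share of cells with a UMI of up to 1.01%. The Serping1 value rested on 2 of 699 treated cells, which held its 32 UMIs, and without the cell with the most UMIs in each library the ratio was -2.09. Fibroblast markers summed to 39.1 CPM in treated and 51.6 CPM in untreated tumour cells, with all 8 markers found in both libraries, and macrophage markers to 129.5 and 108 CPM. Their part in the ratios was not tested.

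In KPB25Luv tumour cells 5 of 9 genes were higher and 3 lower, where 30.7% of all genes measured were higher and 11.7% lower, a wide background from 57 treated cells. C1s1 had 119 treated against 3 untreated UMIs, a log2 ratio of 10.34 (9.17 to 13.05), and 57.9% of treated against 0.102% of untreated tumour cells had a UMI, or 12.3% and 0.0341% when thinned. C3 stood at 17.9 against 4.66 CPM, C4b at 3.20 against 0.605 CPM and Serping1 at 12.2 against 1.40 CPM in treated and untreated cells. C1ra was at 3.32 (2.58 to 4.04), C4b at 2.37 (0.70 to 3.74, from 5 treated UMIs) and C3 at 1.94 (1.33 to 2.50). Serping1 was at 3.10 (2.32 to 3.84), but all 19 of its treated UMIs came from 1 cell. The genes called lower were the C1q chains, with 0 UMIs in treated tumour cells, at least 27.3-fold lower for C1qa, 16.5-fold for C1qb and 14.7-fold for C1qc. Their levels in tumour cells stood at or below those in T cells of the same library. Subtraction of the T cell level therefore left 0 in both libraries, so that no call was possible for these chains. Macrophage markers summed to 36.4 CPM in treated tumour cells, with 7 of 12 found, and 353 CPM in untreated ones, with all 12 found. Cfb had 0 treated and 13 untreated UMIs, too few for a fold. Fibroblast markers summed to 515 CPM in treated tumour cells, with 5 of 8 found, and 280.5 CPM in untreated ones, with 8 of 8 found, and their part in the ratios was not tested. With the 44 treated cells that met the epithelial gate the counts were 4 higher and 3 lower.

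**Figure D3:**
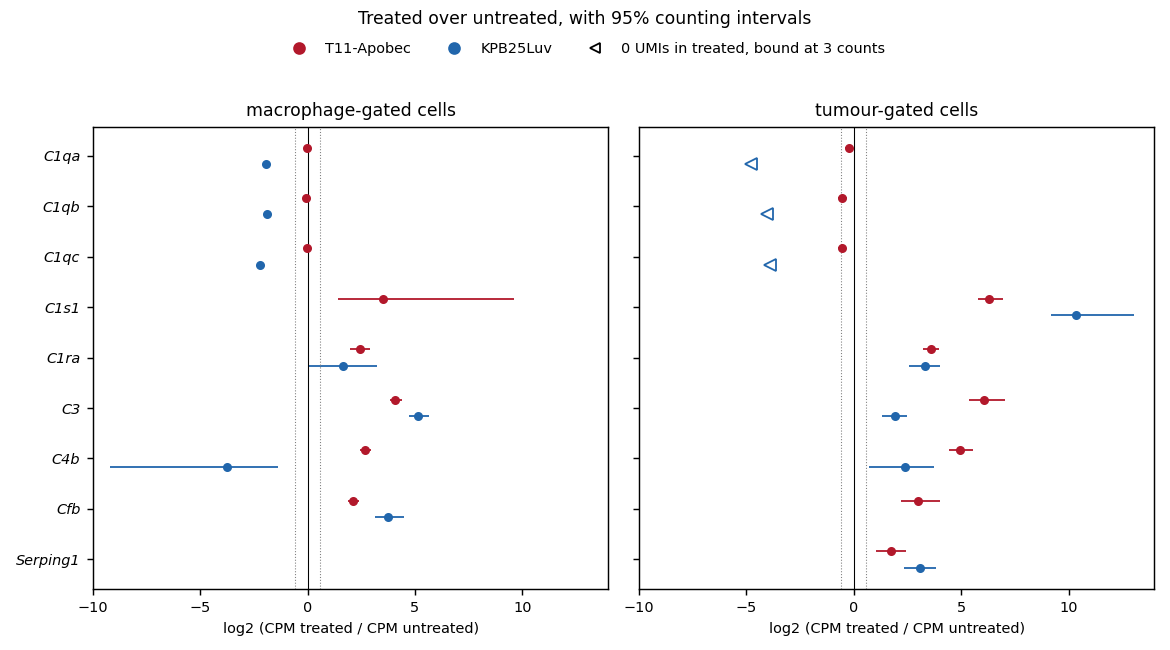
Log2 ratio of CPM in treated over untreated libraries (x) for each gene (y) in macrophage-gated (left) and tumour-gated (right) cells of both models, with exact conditional 95% intervals and dotted lines at 1.5-fold. C3 lies right of 0 in all 4 comparisons, from 1.94 to 6.08, while C4b in macrophages lies at 2.70 in T11-Apobec and -3.74 in KPB25Luv.

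Macrophage-gated cells differed among themselves in C1q. At a common 2000 UMIs, 11.9% (9.50 to 14.7%) of 629 T11-Apobec treated and 1.98% (1.44 to 2.65%) of 2221 T11-Apobec untreated macrophages had no C1q UMI. In KPB25Luv the share was 74.5% (64.4 to 82.9%) of the 94 treated cells and 27.4% (23.4 to 31.7%) of the 471 untreated ones. Cells without C1q carried the most Ly6c2, a marker of inflammatory monocytes that was also in the gate, with 2015 CPM in T11-Apobec treated, 572 CPM in T11-Apobec untreated, 2230 CPM in KPB25Luv treated and 378 CPM in KPB25Luv untreated. Among cells with 10 or more C1q UMIs, Ly6c2 was at 16.1 against 1.07 CPM in T11-Apobec treated and untreated and at 202 against 28.1 CPM in KPB25Luv treated and untreated.

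C3 was higher in the treated library among C1q-rich and C1q-free macrophages alike. With 10 or more C1q UMIs it was at 229.9 CPM in T11-Apobec treated and 12.6 CPM in T11-Apobec untreated, and at 571 CPM in KPB25Luv treated (18 cells) and 6.14 CPM in KPB25Luv untreated. Without C1q it was at 129.9 CPM in T11-Apobec treated and 17.0 CPM in T11-Apobec untreated (3 UMIs), and at 355 CPM in KPB25Luv treated and 22.5 CPM in KPB25Luv untreated. Cfb stood in the same order. Among C1q-free cells it was at 126 against 56.6 CPM in T11-Apobec and 129 against 5.12 CPM in KPB25Luv, treated against untreated. The T11-Apobec intervals, 95.1 to 163 CPM and 27.1 to 104 CPM (10 untreated UMIs), overlapped. Among C1q-rich cells Cfb was at 78.2 against 17.4 CPM and 61.5 against 9.65 CPM in the same order. C4b differed with C1q in 2 of the 4 libraries. It was at 105 CPM in C1q-rich and 15.4 CPM in C1q-free cells of T11-Apobec treated, and at 45.2 CPM in C1q-rich and 2.05 CPM (2 UMIs) in C1q-free cells of KPB25Luv untreated. In T11-Apobec untreated it was at 14.8 CPM (12.4 to 17.5) in C1q-rich and 17.0 CPM (3.50 to 49.6, 3 UMIs) in C1q-free cells, intervals that overlapped. The 18 C1q-rich cells of KPB25Luv treated held 1 C4b UMI, 8.79 CPM (0.22 to 49.0), and its C1q-free cells held 0.

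**Figure D4:**
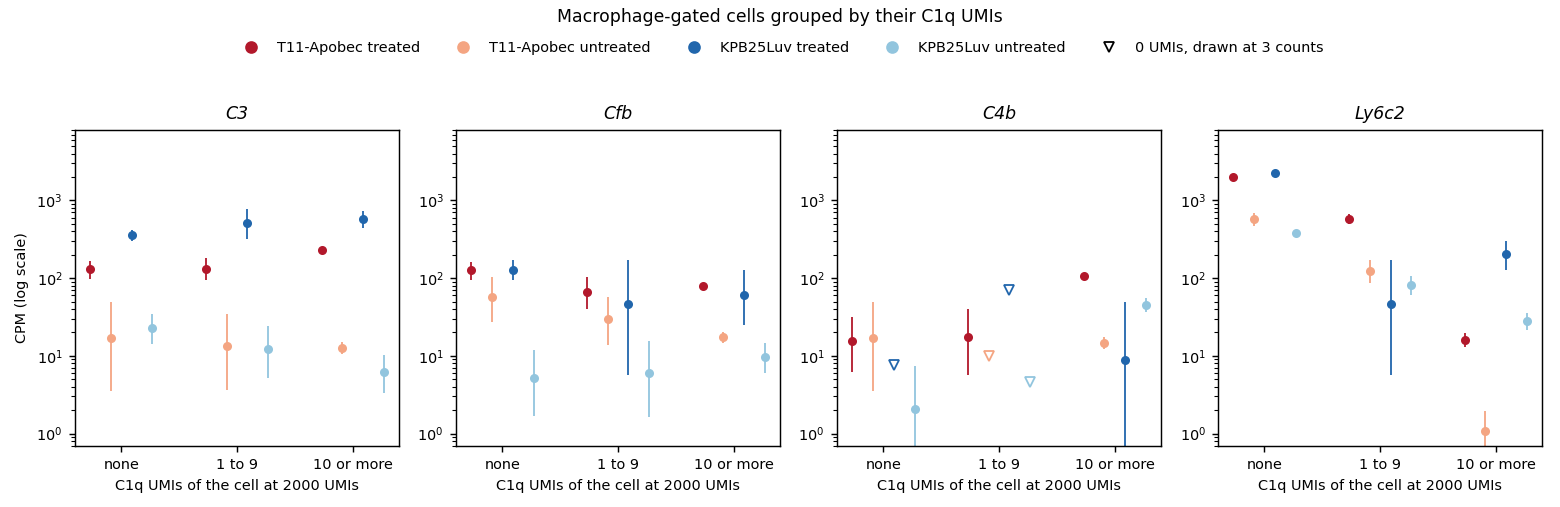
CPM (y, log scale, Poisson 95% intervals) of C3, Cfb, C4b and Ly6c2 in macrophage-gated cells with no, 1 to 9, or 10 or more C1q UMIs at 2000 UMIs per cell (x), in the 4 libraries. C3 of both treated libraries lies at 129.9 CPM or more in every group of cells and that of the untreated libraries at 22.5 CPM or less.

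Genes of the interferon-gamma response were set beside the complement genes. Of 8 such genes, 7 were higher in T11-Apobec treated macrophages, 8 in T11-Apobec treated tumour cells and 6 in KPB25Luv treated macrophages. Among all genes measured, 10.1%, 10.7% and 15.2% were higher in these comparisons. In KPB25Luv treated tumour cells 7 were higher and 1 lower, beside 30.7% and 11.7% of all genes. The lower gene was Irf8, a transcription factor of myeloid cells, at 3.84 against 5.95 CPM. Iigp1, an interferon-induced GTPase, was at 431 CPM in T11-Apobec treated and 18.9 CPM in T11-Apobec untreated tumour cells, and at 235 CPM in KPB25Luv treated and 0.679 CPM in KPB25Luv untreated tumour cells. In macrophages it was at 252 against 38.4 CPM in T11-Apobec and 253 against 2.03 CPM in KPB25Luv, treated against untreated.

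Within the T11-Apobec treated tumour cells the proteases, C3 and C4b went with Iigp1. At a common 5000 UMIs, 379 of 693 cells had an Iigp1 UMI. These cells had C1s1 at 46.4 CPM against 8.80 CPM in cells without, C1ra at 20.9 against 4.18 CPM, C3 at 19.8 against 5.64 CPM and C4b at 20.9 against 3.27 CPM. C1qa, in contrast, was at 25.1 CPM in cells with and 22.3 CPM in cells without Iigp1. Cells of T11-Apobec treated without Iigp1 still had more C1s1 than the 5042 such cells of T11-Apobec untreated, at 0.307 CPM. In KPB25Luv treated C1s1 was at 110.1 CPM in 25 cells with Iigp1 and 51.1 CPM in 32 without, and C3 at 31.7 and 7.77 CPM, while the intervals of C1ra and C4b overlapped. Cells of 1 library are not replicates, so these splits describe the libraries.

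**Figure D5:**
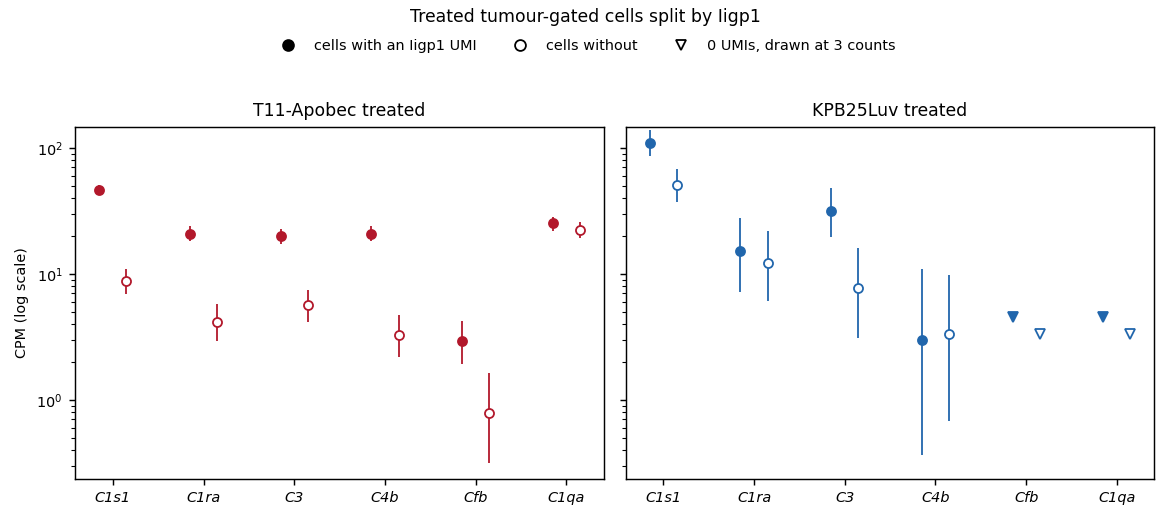
CPM (y, log scale, Poisson 95% intervals) of 6 genes (x) in treated tumour-gated cells with (filled) and without (open) an Iigp1 UMI at 5000 UMIs per cell, for T11-Apobec (left) and KPB25Luv (right). C1s1 lies at 46.4 and 8.80 CPM in T11-Apobec treated and at 110.1 and 51.1 CPM in KPB25Luv treated, in cells with and without Iigp1.

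A list of 36 other complement genes, 35 of them in the feature table, gave the wider pathway. In T11-Apobec macrophages 7 of 17 measured were higher and 1 lower, beside 10.1% and 14.5% of all genes. Cfp, encoding properdin, which stabilises the alternative pathway's convertase, was at 478 against 183 CPM, and C6, of the terminal pathway, at 10.3 against 1.01 CPM, treated against untreated. The C3 fragment receptor chains Itgb2 and Itgam were at 205 against 80.2 CPM and 153 against 99.6 CPM, and Cd93, a surface glycoprotein once described as a C1q receptor, was lower at 40.7 against 75.3 CPM. In KPB25Luv macrophages 5 of 17 were higher and 4 lower, beside 15.2% and 31.2% of all genes. Itgb2 was at 298 against 194 CPM, Itgam at 209 against 99.4 CPM and Itgax, a further receptor chain, at 49.1 against 30.7 CPM. Clu, encoding clusterin, was lower at 1.82 against 39.5 CPM, where 1.82 CPM is the level of 1 UMI in the treated cells. C1qbp, encoding a mainly mitochondrial protein that binds C1q, was lower at 60.0 against 138 CPM.

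Among T11-Apobec tumour cells 7 of 20 of these genes were higher and 5 lower, beside 10.7% and 11.6% of all genes. C2, the protease partner of C4, was at 5.62 against 0.943 CPM, Masp1, a lectin pathway protease, at 11.02 against 7.29 CPM and Cd59a, a membrane inhibitor of the terminal pathway, at 4.05 against 2.44 CPM in treated and untreated cells. Itgb2 was at 3.13 against 0.810 CPM, while Clu was lower at 12.8 against 26.8 CPM and C3ar1, the C3a receptor, at 0.864 against 1.34 CPM, a log2 ratio of -0.63 whose interval (-1.49 to 0.14) reached past no change. Both Itgb2 and C3ar1 are leukocyte genes. C3ar1 was at 1.71 against 3.82 CPM in T cells of the same libraries (3 UMIs in the untreated one), and the leukocyte gene Ptprc was at 4.70 against 1.65 CPM in the tumour cells, treated against untreated. The part of leukocyte RNA in these values was not tested. In KPB25Luv tumour cells 9 of 21 were higher and 3 lower, beside 30.7% and 11.7% of all genes. Clu was higher there, at 1486 against 269 CPM, as were Masp1 at 26.9 against 11.3 CPM and C1rb at 14.1 against 1.33 CPM. C8g, a chain of C8, was also called higher, at 3.20 against 2.01 CPM. A level of 3.20 CPM is 5 UMIs in the treated cells, with an interval of 1.04 to 7.46 CPM. Cfp was lower at 1.28 against 8.16 CPM, and C5ar1, the C5a receptor, had 0 treated UMIs and was at least 1.72-fold lower. The near copies of the C1 proteases, named after their values were seen, were also higher in treated T11-Apobec tumour cells, C1rb at 4.32 against 0.266 CPM and C1s2 at 1.84 against 0.0398 CPM, so that the difference cannot be assigned to 1 copy of either pair with certainty.

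The genes closest in pattern were sought over the 26 sums of a class in a library with at least 50 cells, by Pearson's r of log2(CPM + 1) among 12740 genes. These sums share libraries and depth, and r is a description. Each C1q chain was closest to the other chains, at r of 0.986 to 0.993, and then to the gate marker Lyz2. C1s1 was closest to Ccl11 (0.827), Pcdh7 (0.764) and Pla1a (0.760), and C1ra to Ccl7 (0.857), C1rb (0.841) and Slamf8 (0.814). For C3 the closest were Nampt (0.885), Saa3 (0.844) and Gk (0.839), and for C4b Dnaaf3 (0.853), Klhl33 (0.820) and Tmem141 (0.801). Cfb was closest to Ccl24 (0.917), Siglec1 (0.917) and Atp6v0d2 (0.916), and Serping1 to Meg3 (0.902), Rarres2 (0.860) and P4ha3 (0.845).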

How the data were processed

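The authors deposited raw counts of UMIs per gene and barcode for 4 libraries of the 10x Genomics 3' v2 kit. The software was Cell Ranger 3.0.2, as the header of every matrix records, and the genome mm10, per the submitters' processing notes. Cells with at least 200 genes and at most 10% mitochondrial UMIs were kept. A class needed a minimum number of its markers (6 of 12 for macrophages, 4 of 9 for the mesenchymal or epithelial gate) and of marker UMIs per 10000 (20 for macrophages, 5 for tumour cells). T11-Apobec tumour cells were those of the mesenchymal gate and KPB25Luv tumour cells those of the epithelial or mesenchymal gate; these minimums were set after the data were seen. Doublets were treated by leaving out cells of mixed gates, and Scrublet was run as an alternative, beside other scaling, filters, gates, weights and a subtraction of free RNA.

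UMIs were summed over the cells of a class and scaled to the class total (CPM), with exact Poisson intervals; shares have exact Clopper-Pearson intervals. For the log2 ratio 1 count was split over the pair of libraries by depth and added, and its interval is exact and conditional. A gene with 0 UMIs in a library was called only where its bound, at 3 counts in that library's class, was past 1.5-fold. With 1 library per group no test was run within a model, and none was run over both models together. Intervals are at 95%. Only those of the log2 ratio were tested on simulated data, with independent Poisson counts, so UMIs held by few cells are not covered. Genes named besides the 9 were the 8 interferon-gamma response genes, at most 6 other complement genes per class and model, those with the most UMIs among the ones past 1.5-fold with at least 50 UMIs, and the 3 genes closest in pattern. Some genes that this rule names are not reported here. The genes, lists and markers were chosen with earlier results of these data known. Positions are from GENCODE M21 and promoters from RefSeq. Python 3.11.15, numpy 2.4.6, scipy 1.17.1 and scanpy 1.11.5 were used.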

Additional observations from a re-analysis of the deposited data

Results flagged for a closer look

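C4b in macrophage-gated cells was singled out because the treated library was higher in T11-Apobec, at a log2 ratio of 2.70, and lower in KPB25Luv, at -3.74. The difference between the models was not tested, and the KPB25Luv value rests on 1 treated UMI. C4b was higher in C1q-rich than in C1q-free macrophages of T11-Apobec treated and KPB25Luv untreated while the intervals overlapped in T11-Apobec untreated, and KPB25Luv treated had 18 C1q-rich cells. The part of their number in the result was not tested.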

How the results depend on the processing

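No paired analysis was possible because each comparison set 1 treated against 1 untreated library, and a fit over both models with the model as a block was not run. Both macrophage counts of the 9 genes past 1.5-fold stayed within 1.5 times under every alternative run: median-of-ratios scaling, the filters on low counts, 500 genes, 20% mitochondrial UMIs, removal of the highest Scrublet scores, 1 gate marker more, subtraction of the T cell CPM, equal weight per cell and, chosen after seeing the data, leaving out the cell with the most UMIs of a gene and requiring the whole interval past 1.5-fold. The limits to cells of at least 5000 UMIs and to the epithelial gate of KPB25Luv were also chosen after seeing the data. Scaling moved the median of all genes by -0.23 in KPB25Luv macrophages and 0.24 in KPB25Luv tumour cells and by less than 0.1 in T11-Apobec. In T11-Apobec tumour cells the count of 6 became 8 (6 higher, 2 lower) with 1 gate marker more, 6 (5 higher, 1 lower) with only cells of at least 5000 UMIs and 8 (5 higher, 3 lower) without the cell with the most UMIs. Serping1 reversed there, to -2.96 with cells of at least 5000 UMIs and -2.09 without the top cell. In KPB25Luv tumour cells the count of 8 became 5 once the T cell CPM was subtracted, all higher. The C1q chains then had no value left in either library and could not be called. Of 334 recomputed log2 ratios 297 stayed within the main counting interval, 35 moved outside it and 2 reversed. Thinning to 1000 UMIs moved 61 of 72 shares of cells with a UMI. Cell number limits the KPB25Luv treated values, with 57 tumour and 98 macrophage cells.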

Other observations

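Neutrophil-gated cells of KPB25Luv untreated, 481 in number, had C3 at 29.9 CPM from 16 UMIs, above the 1.74 CPM of T cells in that library. Epithelial-gated cells inside T11-Apobec tumours had C4b at 14.3 CPM in the treated library (54 cells, 9 UMIs) and 27.8 CPM in the untreated library (60 cells, 13 UMIs), intervals that overlapped. Endothelial cells of T11-Apobec untreated, 333 in number, had Serping1 at 1.88 CPM from 4 UMIs, against 365 CPM in the pericytes of that library.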
